A study of Mus musculus with 3 samples.

Results

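Genes for the enzymes and structural proteins that act on chromatin were compared between mouse liver RNA and mouse spleen RNA on two-colour oligonucleotide arrays. The set was taken by a rule on gene symbols alone, which was chosen with earlier results of these data known. It took the histone deacetylases (Hdac), sirtuins (Sirt), lysine demethylases (Kdm), lysine methyltransferases (Kmt, Setd, Ezh1 and Ezh2), DNA methyltransferases (Dnmt), the Smarc and Chd remodelers, the chromobox proteins (Cbx) and the high mobility group (HMG) proteins. Kdm5d was left out. The rule found 55 genes with 62 probes, of the 10698 genes with 13738 probes that carry a single gene symbol. Histone genes whose symbol begins with Hist were also part of the rule, and 0 probes carried such a symbol. Of the 55 genes, 54 had a probe measured on all 3 arrays.

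Per the labels, every array carried liver total RNA in the red dye (Cyanine-5) and spleen total RNA in the green dye (Cyanine-3). Both were bought from Clontech and amplified in a single round, and the labels give neither the mice's strain, sex and age nor the number pooled. The same 2 products were used throughout and no array had the dyes exchanged, so the tissue difference of a probe cannot be told apart from a bias of its dyes. The 3 arrays were therefore taken as repeats of 1 pair of RNAs. Their SDs and p-values reflect only array-to-array spread, which may be technical, and not variation among animals.

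The deposited values are log2 ratios of the channels, with no channel intensity beside them. A positive value was read as higher in liver. This direction is likely but is not stated in the labels. Its basis is a set of liver genes with medians of 5.01, 4.85 and 5.07 on arrays 1, 2 and 3, against a set of spleen genes with medians of -2.45, -2.58 and -2.27. Marker lists of the cell types in these tissues share genes with those sets, so the side on which they lie follows in part from that reading and does not check the labels. All 7 measured hepatocyte markers passed toward liver (median 4.94), while 7 of 7 B-cell, 5 of 6 T-cell and 6 of 7 erythroid markers were higher in spleen. Of 6 macrophage markers, 1 was higher in liver and 5 in spleen, and of all genes 25.3% passed toward liver and 27.4% toward spleen. In such tissue RNA, fewer cells of a type and less RNA per cell cannot be told apart.

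DNA in the nucleus is wound around histones. Enzymes write and erase acetyl and methyl groups on histones and methyl groups on DNA, reader proteins such as the chromobox family bind the methylated histones, and remodelers use ATP to slide or evict nucleosomes. HMG proteins bind DNA or nucleosomes directly and change how tightly chromatin is packed. Liver is made up largely of hepatocytes, which seldom divide in the adult, whereas mouse spleen holds lymphocytes, macrophages and blood-forming cells, some of them dividing.

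Most chromatin genes that passed the test were higher in spleen. A gene passed at an adjusted p under 0.05 in limma's moderated test of its log2 ratio against 0, adjusted by Benjamini-Hochberg over all 9803 genes measured on the 3 arrays. Of the 54 measured members, 8 (14.8%) passed toward liver and 26 (48.1%) toward spleen, against 25.3% and 27.4% of all genes. In either direction 34 members (63.0%) passed, against 52.8% of all genes. The median log2 ratio of the members was -0.25, against 0.02 for all genes. No test of the set as a whole was made. Means below are log2 ratios, ± the SD of the 3 arrays (n = 3), and each fold is the antilog of such a mean.

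At 2-fold or more, 1 member (1.85%) passed toward liver and 7 (13.0%) toward spleen, against 9.21% and 8.4% of all genes, or 17.6% in either direction. The member toward liver was the mitochondrial deacetylase gene Sirt3. Those toward spleen were the HMG genes Hmgb2, Hmgn3, Hmgb3 and Hmgn2 and the methyltransferase genes Kmt2a, Ezh2 and Kmt2b. All 8 passed without any 1 of the arrays. The other calls toward liver were small, with means between 0.23 and 0.59, and the count of 8 became 4 without array 1, 4 without array 2 and 6 without array 3. The share of all genes past the test toward liver was then 18.1%, 18.7% and 22.0%. The ratio kept 1 sign on all 3 arrays in 42 members (77.8%), against 74.7% of all genes.

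**Figure D1:**
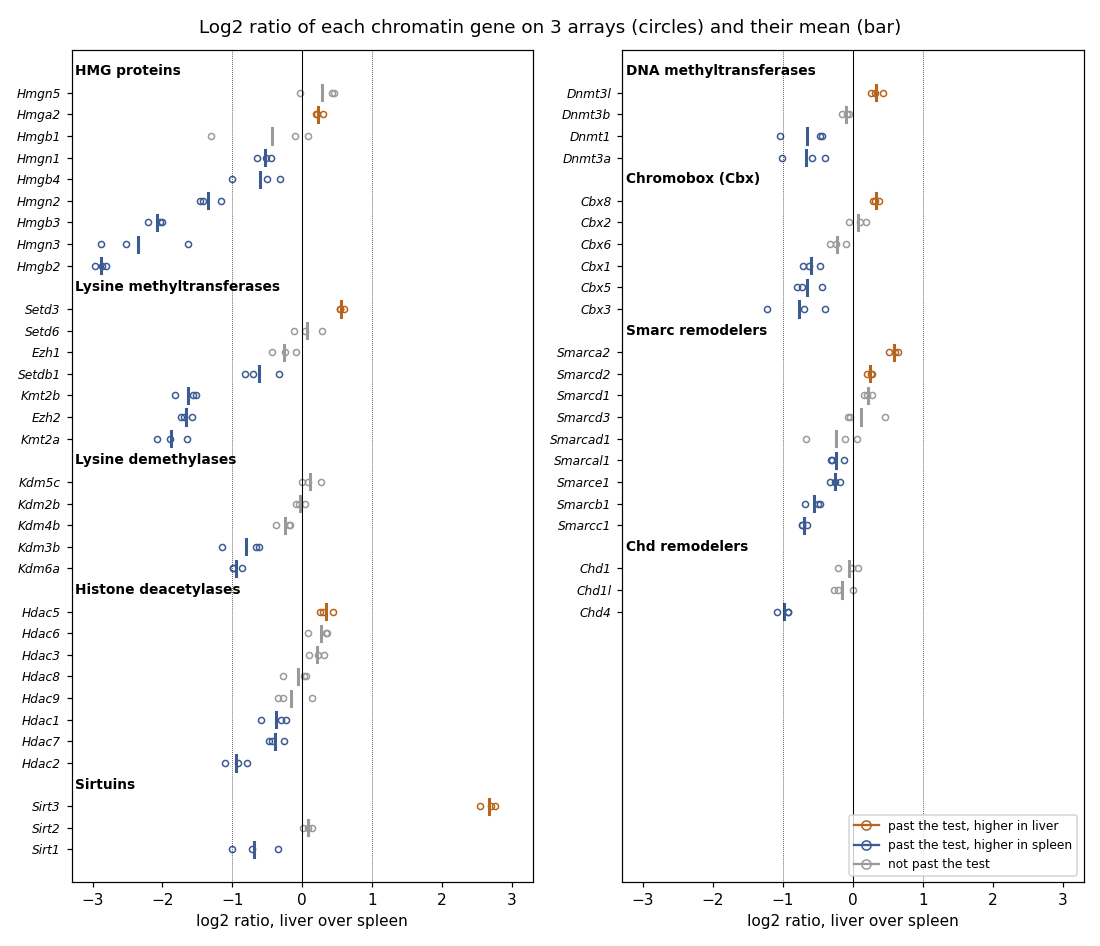
Log2 ratio, liver over spleen, of each of the 54 measured chromatin genes on the horizontal axis, with 3 circles for the arrays and a bar for their mean, grouped by role and ordered within a role from liver to spleen. Dotted lines mark a 2-fold ratio. Sirt3 lies alone on the liver side at 2.67, while Hmgb2, Hmgn3, Hmgb3, Hmgn2, Kmt2a, Ezh2 and Kmt2b lie beyond 2-fold on the spleen side.

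HMG genes were the role group with the lowest single value, and of the 9 measured 1 (11.1%) passed toward liver and 6 (66.7%) toward spleen, beside 25.3% and 27.4% of all genes, with a median of -0.61. Hmgb2, an HMG-box protein that bends DNA and is abundant in dividing and lymphoid cells, read -2.87, -2.80 and -2.96 on arrays 1, 2 and 3. Its mean of -2.88 ± 0.08 is a 7.35-fold higher level in spleen (limma, adjusted p = 1.29e-05), and it held place 27 from the spleen end among the 9803 genes. Hmgb3, a related protein known from blood-forming progenitors, read -2.20, -2.03 and -2.00, a 4.22-fold ratio toward spleen (limma, adjusted p = 2.67e-05). The 3 arrays lay close together for both genes. Hmgb1, the founding member of this family, read -1.31 on array 1 but -0.10 and 0.09 on the others and did not pass (adjusted p = 0.229). Hmgb4, known from testis, averaged -0.61 ± 0.36 and passed toward spleen.

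The HMGN proteins bind nucleosomes and loosen chromatin. Hmgn3 read -2.52, -2.88 and -1.64, a mean of -2.35 ± 0.64 and a 5.09-fold ratio toward spleen (limma, adjusted p = 0.000669). Its arrays spread widely, yet every one of them was beyond 2-fold. Hmgn2 read -1.42, -1.47 and -1.17, a 2.55-fold ratio toward spleen, and Hmgn1 averaged -0.54 ± 0.10 and also passed toward spleen. Hmgn5 at 0.28 ± 0.27 did not pass, except toward liver without array 2. Hmga2, an AT-hook protein of embryonic tissue, read 0.21, 0.29 and 0.19 and passed toward liver, at an adjusted p = 0.0481 that became 0.0964 to 0.183 when 1 array was left out. Several HMG genes have processed copies elsewhere in the mouse genome, and signal shared with such copies was not resolved here.

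Lysine methyltransferase genes included the other large ratios toward spleen. Of 7 measured, 1 (14.3%) passed toward liver and 4 (57.1%) toward spleen, beside 25.3% and 27.4% of all genes, with a median of -0.62. The group was formed by symbol, and the 1 gene toward liver is Setd3, known to methylate actin. Kmt2a, the MLL protein that methylates histone H3 at active promoters and maintains Hox gene expression, read -2.07, -1.90 and -1.65, a 3.67-fold ratio toward spleen (limma, adjusted p = 7.66e-05). Its close relative Kmt2b read -1.57, -1.83 and -1.52, a 3.11-fold ratio (limma, adjusted p = 8.26e-05). Both genes were beyond 2-fold on each array.

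Ezh2, the catalytic subunit of Polycomb repressive complex PRC2, read -1.58, -1.73 and -1.70, a 3.18-fold ratio toward spleen (limma, adjusted p = 4.26e-05). Its paralog Ezh1, the PRC2 enzyme typical of non-dividing tissue, averaged -0.26 ± 0.17 over 2 probes and did not pass (adjusted p = 0.064). It passed with the arrays centred on their medians. Whether Ezh2 and Ezh1 differ in their ratios was not tested. Setdb1, which methylates histone H3 in silent chromatin, read -0.81, -0.34 and -0.71 and passed toward spleen. Setd3, a SET-domain enzyme known to methylate actin, passed toward liver with closely spaced values of 0.54, 0.60 and 0.53. Setd6 at 0.07 ± 0.20 did not pass.

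The sequences around the starts of Hmgb2, Hmgb3 and Ezh2, which share a large ratio toward spleen, and of Sirt3, which has the large ratio toward liver, are shown for comparison. Each is taken from RefSeq (GRCm38.p6) and runs 5′ to 3′ on the gene's strand, from 250 bases before to 50 bases after a gene start, the most upstream one where the table gave several. RefSeq's gene span of Ezh2 begins upstream of the start used. Capitals mark matches, on either strand, to CCAAT, to TTTGAA and to TTCGCGC or TTGGCGC. These are the letters of the CCAAT box, of the cell cycle homology region found at genes of dividing cells, and of E2F-type sites. No marked matches overlap. The windows are chr8:57511593-57511892 on the plus strand, chrX:71555667-71555966 on the plus strand, chr6:47594981-47595280 on the minus strand and chr7:140882260-140882559 on the minus strand, in the order shown.
Hmgb2: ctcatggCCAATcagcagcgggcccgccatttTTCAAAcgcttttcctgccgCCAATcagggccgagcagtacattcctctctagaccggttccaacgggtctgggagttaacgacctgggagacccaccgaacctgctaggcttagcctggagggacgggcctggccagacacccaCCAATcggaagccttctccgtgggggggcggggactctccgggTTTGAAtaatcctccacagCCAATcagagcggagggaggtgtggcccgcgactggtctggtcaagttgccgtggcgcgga
Hmgb3: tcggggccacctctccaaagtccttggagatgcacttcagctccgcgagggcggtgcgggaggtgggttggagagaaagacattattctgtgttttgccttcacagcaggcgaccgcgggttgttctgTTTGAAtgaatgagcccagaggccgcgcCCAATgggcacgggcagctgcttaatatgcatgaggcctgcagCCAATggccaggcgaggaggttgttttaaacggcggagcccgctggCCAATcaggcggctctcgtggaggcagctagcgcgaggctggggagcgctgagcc
Ezh2: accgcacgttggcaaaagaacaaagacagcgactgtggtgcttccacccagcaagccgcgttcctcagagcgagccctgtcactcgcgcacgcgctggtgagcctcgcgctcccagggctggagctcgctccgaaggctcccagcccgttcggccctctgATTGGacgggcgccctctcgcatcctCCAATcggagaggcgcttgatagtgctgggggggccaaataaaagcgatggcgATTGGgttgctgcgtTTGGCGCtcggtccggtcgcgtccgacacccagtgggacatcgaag
Sirt3: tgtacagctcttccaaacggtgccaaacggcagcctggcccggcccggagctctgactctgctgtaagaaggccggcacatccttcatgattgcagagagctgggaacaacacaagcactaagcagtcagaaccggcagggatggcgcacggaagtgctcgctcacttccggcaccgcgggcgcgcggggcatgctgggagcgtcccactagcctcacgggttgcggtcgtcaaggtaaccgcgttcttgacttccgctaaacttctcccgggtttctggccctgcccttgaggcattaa

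The Hmgb2 window held 4 matches to CCAAT and 2 to TTTGAA, the Hmgb3 window 3 and 1, and the Ezh2 window 3 matches to CCAAT and 1 to TTGGCGC. No match lay in the Sirt3 window. This window also holds the start of the neighbouring gene Psmd13, with 84 bases between the starts of both genes, so it is not sequence of Sirt3 alone. Kmt2a and Hmgn2, also 2-fold or more toward spleen, had windows that are not shown above, although the Kmt2a ratio exceeded that of Ezh2. The windows shown for spleen genes are those with the most matches, so they do not stand for all such genes. The Kmt2a window had no match, and the Hmgn2 window had 1 match, to CCAAT. Of the 8 members at 2-fold or more, 6 had a window in the table. Among these 6, CCAAT was found in 4 windows, TTTGAA in 2, TTGGCGC in 1 and TTCGCGC in 0. Among all 27025 windows the shares were 38.0%, 18.2%, 2.57% and 1.60%. The 6 member windows held from 20 (Hmgb2 and Hmgb3) to 36 (Kmt2a) CG dinucleotides, against a median of 7 among all windows. The shares were not matched for this. A match describes the letters only, and no binding was measured.

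Genes of dividing cells were higher in spleen beside these. Of 17 measured markers of dividing cells, 0 passed toward liver and 15 (88.2%) toward spleen, beside 25.3% and 27.4% of all genes. The 17 include Mki67, Top2a, Ccna2 and the Mcm helicase genes. The medians of the 17 markers were -1.36, -1.17 and -1.10 on arrays 1, 2 and 3, with gene means from -2.88 to -0.16. Of the 19 listed markers, 0 had only probes at exactly 0. The part of dividing cells, or of the lymphoid and erythroid cells whose markers are given above, in the ratios of the chromatin genes was not tested.

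Sirtuins are deacetylases that consume NAD+. Sirt3, the main deacetylase of mitochondria, read 2.75, 2.70 and 2.55, a mean of 2.67 ± 0.11 and a 6.34-fold higher level in liver (limma, adjusted p = 1.47e-05). Sirt1, the nuclear sirtuin, went toward spleen with -1.003, -0.35 and -0.72, a mean of -0.69 ± 0.33 (limma, adjusted p = 0.00875). Sirt2, found mostly in the cytoplasm, averaged 0.08 ± 0.06 and did not pass. The 3 sirtuins thus took 3 different calls. Psmd13, a proteasome subunit gene that neighbours Sirt3 in the RefSeq table and was looked up after the values were seen, read 0.39, 0.33 and 0.41. It passed toward liver at 1.30-fold, so its ratio was far smaller than that of Sirt3 on every array.

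Histone deacetylase genes showed small ratios in both directions. Of 8 measured, 1 (12.5%) passed toward liver and 3 (37.5%) toward spleen, beside 25.3% and 27.4% of all genes. In either direction 50.0% passed, beside the 52.8% of all genes. Hdac2, a catalytic subunit of the NuRD, Sin3 and CoREST corepressor complexes, read -0.92, -1.11 and -0.79, a 1.92-fold ratio toward spleen (limma, adjusted p = 0.000595). Hdac1, its partner in the same complexes, averaged -0.37 ± 0.19 and passed, but not without array 1 or array 2. Hdac7, a deacetylase of the class that shuttles between cytoplasm and nucleus, averaged -0.39 ± 0.12 and did not pass without array 1. Hdac5, of the same class, read 0.30, 0.44 and 0.26 and passed toward liver, but not without array 1 or array 2. The others did not pass, with means of 0.26 for the tubulin deacetylase Hdac6 (past the test toward liver without array 3), 0.21 for Hdac3, the enzyme of the NCoR corepressors, -0.07 for Hdac8 and -0.16 for Hdac9.

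Of 5 lysine demethylase genes, 0 passed toward liver and 2 (40.0%) toward spleen, beside 25.3% and 27.4% of all genes. In either direction 40.0% passed, beside 52.8% of all genes. Kdm6a, the X-linked demethylase that removes the mark set by Ezh2, read -0.99, -0.86 and -0.99, a 1.93-fold ratio toward spleen (limma, adjusted p = 0.000301). Its arrays lay within a narrow band just short of 2-fold. Kdm3b, a demethylase of histone H3 at silenced genes, averaged -0.81 ± 0.30 and passed toward spleen. Kdm4b averaged -0.25 ± 0.11, Kdm2b -0.03 ± 0.07 and the X-linked Kdm5c 0.11 ± 0.14, and none of the 3 passed, although Kdm4b did with the arrays centred on their medians. Kdm6a and Kdm5c both escape X inactivation in mice, and the sex of the animals is not given in the labels.

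DNA methyltransferase genes passed toward liver for 1 of 4 and toward spleen for 2 of 4, beside 25.3% and 27.4% of all genes, and so few genes give no result about the group. Dnmt1, which copies methylation onto newly replicated DNA, averaged -0.65 ± 0.34 over 2 probes and had readings of -0.47, -1.05 and -0.44. Dnmt3a, which sets new methylation, read -0.58, -1.01 and -0.40, a 1.58-fold ratio toward spleen (limma, adjusted p = 0.00939). For both genes array 2 gave the most negative value. Dnmt3b, the other enzyme that sets new methylation, averaged -0.10 ± 0.05 and did not pass. Dnmt3l, a cofactor without catalytic activity known from germ cells, read 0.25, 0.32 and 0.43 and passed toward liver, but not without array 2 or array 3.

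Of 6 measured chromobox genes, 1 (16.7%) passed toward liver and 3 (50.0%) toward spleen, beside 25.3% and 27.4% of all genes. Chromobox proteins fall into the HP1 and the Polycomb type. The 3 HP1 genes, whose proteins bind methylated histone H3 in heterochromatin, all passed toward spleen. Cbx3 read -0.70, -1.22 and -0.40, a 1.71-fold ratio (limma, adjusted p = 0.0111), Cbx5 averaged -0.65 ± 0.19 and Cbx1 -0.60 ± 0.12. Of the 3 Polycomb chromobox genes, whose proteins belong to complex PRC1, 1 passed toward liver and 0 toward spleen. Cbx8 read 0.38, 0.32 and 0.29 and passed toward liver, but not without array 1 or array 2, and Cbx2 at 0.08 ± 0.12 did not pass. The difference between the types was not tested, and so few genes give no result about either type.

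Cbx6 had 2 probes that went opposite ways. One read 1.13, 0.83 and 1.35, a mean of 1.10 ± 0.26 toward liver, and the other -1.61, -1.47 and -1.55, a mean of -1.55 ± 0.07 toward spleen. Fitted on their own, both passed (limma, adjusted p = 0.000847 and 6.24e-05). Averaged over them, the gene stood at -0.22 ± 0.11 and did not pass, so the average describes neither probe. The other 4 members with several probes differed less between probes, by 0.16 to 0.55. Of the 2 Dnmt1 probes, 1 averaged -0.93 and the other, at -0.38, did not pass on its own. Of the 3 Hdac3 probes, 1 averaged 0.36 and passed toward liver on its own. Of the 2 Ezh1 probes, 1 averaged -0.35 and passed toward spleen on its own. Of the 3 Smarcd2 probes, only 1 passed toward liver on its own, and another read 0.46, 0.39 and -0.36. The SDs of the 3 probes were 0.14, 0.19 and 0.45, against 0.04 for their average, so the average spread less over the arrays than any of them.

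**Figure D2:**
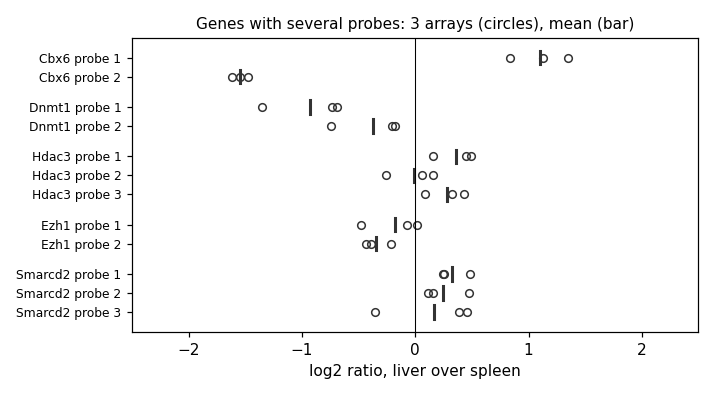
Log2 ratio, liver over spleen, on the horizontal axis for each probe of the 5 chromatin genes with several probes, with circles for the 3 arrays and a bar for the mean. The 2 probes of Cbx6 lie on opposite sides of 0, at 1.10 and -1.55, while probe means of the other 4 genes lie within 0.55 of each other.

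Smarc genes encode subunits of the SWI/SNF (BAF) remodeling complexes and related ATPases. Of 9 measured, 2 (22.2%) passed toward liver and 4 (44.4%) toward spleen, all under 2-fold, beside 25.3% and 27.4% of all genes. Smarcc1, a scaffold subunit of the complex, read -0.73, -0.73 and -0.65, a 1.63-fold ratio toward spleen (limma, adjusted p = 0.000802). Smarcb1, a core subunit, averaged -0.55 ± 0.11 and also passed. Smarca2, also called Brm, which is one of the complex's alternative ATPases, went the other way at 0.61, 0.64 and 0.52, a 1.51-fold higher level in liver (limma, adjusted p = 0.0017). Subunits of 1 complex thus had ratios on both sides of 0.

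The remaining Smarc ratios were smaller. The DNA-binding subunit gene Smarce1 at -0.26 ± 0.08 and Smarcal1, which rejoins DNA strands at stalled forks, at -0.25 ± 0.10 passed toward spleen, and Smarcd2 at 0.25 ± 0.04, averaged over 3 probes, passed toward liver. None of these 3 passed when any 1 array was left out. Smarcd1, Smarcd3 and Smarcad1 averaged 0.21, 0.11 and -0.24 and did not pass. Smarca5, the ATPase of the ISWI remodelers, was listed at exactly 0 on arrays 1 and 3 and read -0.83 on array 2, so it was not tested. Among 3 Chd remodelers, Chd4, the ATPase of NuRD, read -0.92, -0.93 and -1.09, a 1.97-fold ratio toward spleen (limma, adjusted p = 0.000298). Chd1 at -0.05 ± 0.15 and Chd1l at -0.16 ± 0.14 did not pass.

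**Figure D3:**
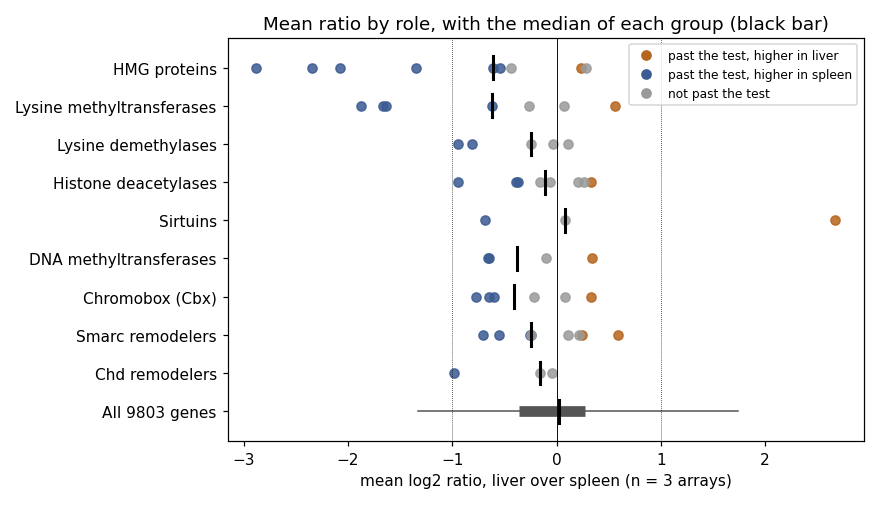
Mean log2 ratio, liver over spleen, of each measured chromatin gene on the horizontal axis by role, with a black bar for the median of each role. The bottom row gives all 9803 genes, with a thick line from the 25th to the 75th percentile and a thin line from the 5th to the 95th. The HMG and methyltransferase medians lie at -0.61 and -0.62, the sirtuin median at 0.08 and that of all genes at 0.02.

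Partners of these proteins that the symbol rule does not take were counted in 8 lists of 151 genes in all, 90 of them measured. Of the 90, 7 (7.78%) passed toward liver and 40 (44.4%) toward spleen, beside 25.3% and 27.4% of all genes. In either direction that is 52.2%, beside 52.8% of all genes. Histone chaperones, which carry histones to and from DNA, had 0 of 14 past the test toward liver and 11 (78.6%) toward spleen. The H2A.Z chaperone Anp32e averaged -1.75 ± 0.15 and the H2A-H2B chaperone Nap1l1 -1.73 ± 0.18. Of 6 replacement histone genes, 0 passed toward liver and 5 (83.3%) toward spleen. Those toward spleen were led by the DNA damage histone H2ax at -2.14 ± 0.04 and the centromere histone Cenpa at -2.06 ± 0.12.

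Polycomb partners had 0 of 16 past the test toward liver and 6 (37.5%) toward spleen, beside 25.3% and 27.4% of all genes. In either direction that is 37.5%, beside 52.8% of all genes. Eed, which forms PRC2 with Ezh2, averaged -1.55 ± 0.09, a 2.93-fold ratio toward spleen, and the PRC2 accessory protein Mtf2 -1.10 ± 0.29. Partners of DNA methylation had 1 of 8 (12.5%) toward liver and 3 (37.5%) toward spleen, or 50.0% in either direction. Uhrf1, which brings Dnmt1 to replicated DNA, averaged -1.07 ± 0.28 and the methyl-DNA reader Mbd2 -1.73 ± 0.27. Among 11 deacetylase corepressors, 1 (9.09%) passed toward liver and 5 (45.5%) toward spleen, or 54.5% in either direction. The one toward liver was Rcor2, a CoREST protein, at 3.63 ± 0.20, a 12.4-fold higher level in liver (limma, adjusted p = 1.33e-05) and larger than the ratio of any member, and Mta2 of NuRD averaged -1.03 ± 0.14.

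Remodeler partners had 4 of 20 toward liver and 5 toward spleen, or 45.0% past the test beside 52.8% of all genes, with the BAF subunit genes Bcl7c at 0.70 ± 0.03 and Ss18 at -1.27 ± 0.12, and Hells, a remodeler needed for DNA methylation, at -1.43 ± 0.03. Other histone methyltransferases had 1 of 10 toward liver and 3 toward spleen, or 40.0% past the test, with Smyd2 at 1.09 ± 0.05 and the arginine methyltransferase gene Prmt1 at -1.35 ± 0.16. Acetyltransferases had 0 of 5 toward liver and 2 (40.0%) toward spleen, the coactivators Ncoa1 at -0.44 ± 0.31 and Ncoa3 at -0.24 ± 0.06.

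**Figure D4:**
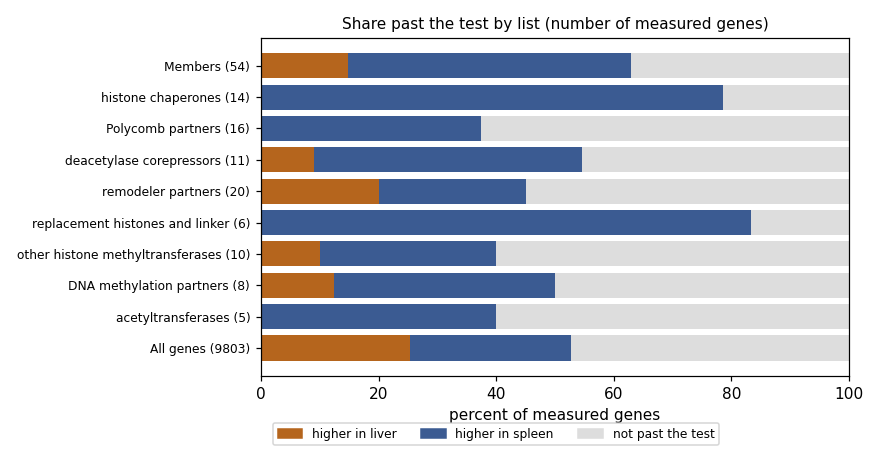
Percent of measured genes past the test and higher in liver, past the test and higher in spleen, or not past it, for the chromatin genes, 8 lists of partner genes and all genes, with the number measured in brackets. The chaperones and replacement histones have 11 of 14 and 5 of 6 genes higher in spleen, and the bottom bar gives 25.3% and 27.4% for all genes.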

How the data were processed

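The study compared 1 commercial liver RNA with 1 commercial spleen RNA on 3 arrays. The deposited table holds 1 log2 ratio of the channels for each of 16281 probes and array, while the sources used here do not give the authors' background correction, dye normalization or filters. The log base was taken from the values, whose maximum of 6.64 on every array is the log2 of a 100-fold limit. Deposited log2 values of exactly 0, 1098 to 1414 an array, were taken as no measurement, since they include probes of abundant liver transcripts.

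Of the probes, 13738 had 1 symbol in the platform annotation, 52 had several and 2491 had none. Entrez numbers of 13694 were found in RefSeq's gene table and 0 symbols changed. Probes measured on all 3 arrays were averaged per gene, which gave 9803 genes. Each was fitted with limma 3.58.1 in R 4.3.3 as an intercept against 0, with eBayes and two-sided Benjamini-Hochberg adjustment over all genes. Past the test means an adjusted p under 0.05. The number of arrays limits the precision. The fit was tested on simulated data.

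Values on each array are given for members at 2-fold or more (1 on the log2 scale), for the largest member past the test in each direction of each role, and where probes differ by 1 or more. Those of Hmgb1, Setdb1, Dnmt1 and 1 Smarcd2 probe, and the gene Psmd13, were added after their values were seen. The 2 largest genes in each direction of the other lists may be named. The text leaves out some of them. The members, lists and rules were chosen with earlier results of these data known. Intensities were not used here, so no filter on dim probes and no other background or dye correction was tried.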

Additional observations from a re-analysis of the deposited data

How the results depend on the processing

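With 1 array left out in turn, 4 to 6 members passed toward liver and 22 to 24 toward spleen, and at 2-fold or more 1 passed toward liver and 8 toward spleen, beside 8, 26, 1 and 7 with all arrays. Of the 34 members past the test, 25 passed without any 1 array, 3 of 8 toward liver and 22 of 26 toward spleen. The other 9 were Cbx8, Dnmt3l, Hdac5, Hmga2 and Smarcd2 toward liver and Hdac1, Hdac7, Smarcal1 and Smarce1 toward spleen. Fewer arrays were fitted there, and 39.8% to 47.4% of all genes passed. With every probe fitted on its own, 2 members passed toward liver and 8 toward spleen at 2-fold or more. Cbx6 counted on both sides there, through 1 probe each. Centring the arrays on their medians, scaling them to equal spread, keeping values of exactly 0 and using probes measured on at least 2 arrays left all 4 counts within 1.5 times, at 6 to 9 toward liver and 25 to 28 toward spleen. Smarcd1 passed toward liver with values of exactly 0 kept, and Ezh1 and Kdm4b toward spleen with the arrays centred or scaled. Calls were also lost. Hmga2 and Smarcd2 did not pass with the arrays centred or scaled. Hmga2 and Smarcal1 did not pass with probes measured on at least 2 arrays, nor with every probe fitted on its own. Smarcal1 also did not pass with values of exactly 0 kept. No member past the test changed sign under any of these alternatives. Every array carries both RNAs, so the test of the ratio against 0 already pairs liver with spleen within an array. No further pairing was possible, since there is a single group of arrays. Without channel intensities, how far a ratio near 0 reflects signal near background cannot be told.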

Other observations

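The platform annotation gives the replication-dependent histones present-day symbols, which the symbol rule does not take. They were looked at after the values of the other genes were seen. Of 16 such genes measured on all 3 arrays, 5 (31.2%) passed limma's test toward liver and 7 (43.8%) toward spleen, beside 25.3% and 27.4% of all genes, with a median log2 ratio of -0.07. H2bc4, for a histone H2B, read 2.36, 1.85 and 2.21 on arrays 1, 2 and 3, toward liver, and H2bc22 averaged 0.97 ± 0.15 (SD, n = 3). The linker histone genes H1f5 and H1f4 averaged -2.63 ± 0.51 and -1.59 ± 0.19, toward spleen, while the linker histone gene H1f2 averaged 0.64 ± 0.13, toward liver. H2ac4, for a histone H2A, averaged -2.20 ± 0.40. Histone genes of a type are near-identical copies, and signal shared between them was not resolved here.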
